A study of Mus musculus with 4 samples.

Results

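Malat1 and Neat1, a pair of long RNAs that do not encode protein and stay in the nucleus, were followed across single-nucleus RNA sequencing (snRNA-seq) of neonatal mouse cardiomyocytes. Both were chosen by name, as 2 of the 22574 genes of the deposited matrix, and not by a rule on their values. Earlier results of these data were known when they were chosen. Their level is given in counts per 1000000 unique molecular identifiers (CPM), where a unique molecular identifier (UMI) counts 1 captured RNA molecule, and as a percent of the UMIs of single nuclei. Both are set beside the percent of UMIs from the mitochondrial genome, whose RNA lies outside the nucleus, as a gauge of nuclear against cytoplasmic RNA.

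The 4 libraries were 1 each of WT-Sham, WT-MI, KO-Sham and KO-MI. All pups carried loxP-flanked Nrf1 (Nrf1 fl/fl) on a C57BL/6 background. Those called KO also carried aMHC-Cre, a Cre recombinase under the cardiomyocyte promoter of alpha myosin heavy chain. Those called WT (Wildtype in the labels) are the Nrf1 fl/fl controls without Cre, not animals with an unmodified gene. Pups had a coronary ligation to cause myocardial infarction (MI), or Sham surgery, at postnatal day 3, and hearts were taken at postnatal day 4, 1 day later. The apical tissue of 4 to 6 hearts was pooled for each library, so there were no replicates, no difference was tested, and every 95% interval covers counting error only.

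The matrix held 8585 cardiomyocyte nuclei and 29407020 UMIs, with 1406 to 3328 nuclei and 4984625 to 9106522 UMIs a library. Median UMIs per nucleus were 3553.5 in WT-Sham, 3951 in WT-MI, 2572 in KO-Sham and 3959 in KO-MI, and median percent.mt, the deposited percent of mitochondrial UMIs, was 6.58, 5.37, 8.98 and 5.29 in that order. The highest percent.mt also differed, at 19.8, 17.9, 14.99 and 12.99. Nfe2l1, the gene that encodes Nrf1, stood at 62.2 CPM (interval 55.5 to 69.5) in WT-Sham, 50.5 (46.0 to 55.3) in KO-Sham, 47.4 (42.7 to 52.4) in WT-MI and 55.3 (50.1 to 60.9) in KO-MI. Over all nuclei the MI pair goes against its labels, with intervals that overlap. Among the populations described below, that pair followed its labels in CM4 (32.0 CPM in KO-MI and 61.7 in WT-MI) and CM2 (31.0 and 54.4). These values rest on few UMIs and their intervals overlap. The pair did not follow its labels in CM1, at 57.7 CPM (51.4 to 64.5) in KO-MI and 44.1 (38.9 to 49.9) in WT-MI. These CM1 intervals do not touch. It did not follow them in CM5 either (57.0 and 54.8), where the intervals overlap. Each group name below therefore stands for the library labelled so, and each direction between genotypes is one between libraries so labelled. Which part of the gene the loxP sites flank is not given in the sources used here, so the counted tags may lie outside the deleted part. Between libraries 9 cell barcodes were shared, in 18 nuclei. The 6 cardiomyocyte markers (Tnnt2, Myh6, Actn2, Ryr2, Ttn and Tnnc1) were detected in every library and population, at 30067 to 32701 CPM over all nuclei. The authors kept clusters by their Tnnt2 expression, so this detection follows in part from the selection and is no independent check of the cell type. Because only cardiomyocyte nuclei were deposited, no cell type that should lack either RNA was at hand to measure free RNA in the droplets.

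Malat1 is an abundant RNA of nuclear speckles, the bodies that hold splicing factors, and is transcribed by RNA polymerase II. Neat1 is the scaffold of paraspeckles, nuclear bodies that form around its long form and hold RNA-binding proteins such as Sfpq and Nono, and it is well known as a stress-responsive RNA. Because both stay in the nucleus, while mitochondrial RNA and most finished mRNA lie in the cytoplasm, their share of a droplet's RNA is often read beside the mitochondrial share.

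The pair are neighbours on the minus strand of chromosome 19. In GRCm38 Malat1 (ENSMUSG00000092341.3) spans chr19:5795690-5802672 and Neat1 (ENSMUSG00000092274.3) spans chr19:5824708-5845478, with 22035 bases between them. In the GENCODE M21 annotation both are long intergenic RNAs, and the annotated transcripts Malat1-201 of 6983 bases and Neat1-201 of 20771 bases fill those spans without an intron. The annotated genes Gm27694 and Gm37376 overlap Malat1, and Gm27533, Gm27505 and Gm28006 overlap Neat1. None of these 5 is in the matrix, and the use of strand in the counting is not given in the sources used here.

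The 3′ ends of both RNAs are shown because the 10x Genomics 3′ kit primes on runs of A, and neither Malat1 nor the long form of Neat1 ends in an ordinary poly(A) tail. Their precursors are cut by RNase P just after a run rich in A, and upstream runs rich in U fold back onto that end. In the first and second sequence (the Malat1 end is chr19:5795982-5796080 and the Neat1 long form end is chr19:5824708-5824806, both in GRCm38 on the minus strand and written 5′ to 3′) capitals mark the runs of 10 or more bases that both transcripts share within their last 400 bases. In the third, the end of the short form of Neat1 (chr19:5842307-5842366, same build and strand), capitals mark the polyadenylation signal AATAAA.
Malat1 3-prime end: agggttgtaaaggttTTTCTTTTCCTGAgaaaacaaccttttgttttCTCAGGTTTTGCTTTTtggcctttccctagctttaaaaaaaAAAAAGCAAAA
Neat1 long form 3-prime end: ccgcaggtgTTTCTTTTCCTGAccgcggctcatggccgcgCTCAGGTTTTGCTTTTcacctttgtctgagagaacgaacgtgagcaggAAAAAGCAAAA
Neat1 short form 3-prime end: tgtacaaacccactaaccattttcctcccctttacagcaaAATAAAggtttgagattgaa

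There were 3 shared runs, of 13, 16 and 11 bases. Of the 122312 GENCODE M21 transcripts of 400 bases or more, searched on the transcript strand, TTTCTTTTCCTGA was in the last 400 bases of 6 (0.00491%), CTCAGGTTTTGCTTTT in 2 (0.00164%) and AAAAAGCAAAA in 143 (0.117%). All 3 were in 2 transcripts, Malat1-201 and Neat1-201. Malat1-201 has a run of 12 A (bases 6674 to 6685) that overlaps the third shared run, and 292 annotated bases follow its A-rich end. A run of 12 A was in the last 400 bases of 2126 transcripts (1.74%). The longest run of A in Neat1-201 is 7 bases, and AATAAA begins at base 3153 of it, with 14 bases between the signal and the end of the short form at base 3172. These matches are descriptions of the letters. The counts are per gene and do not say where on a transcript a UMI was captured or which form of Neat1 gave it.

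Malat1 was the gene with most UMIs, 3118036 of them or 10.6% of all UMIs, 6.01 times those of the next gene, mt-Co3, without division by length. It had at least 1 UMI in all 8585 nuclei. Neat1 had 9114 UMIs (0.0310%), ranked 423 by UMIs, and was detected in 3681 nuclei (42.9%). Per kilobase of annotated transcript, Malat1 stood at 12532 to 17692 CPM per kilobase over the 4 libraries and Neat1 at 6.20 to 24.7.

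Over all nuclei, Malat1 stood at 92773 CPM (92505 to 93040) in WT-Sham, 123543 (123299 to 123787) in WT-MI, 87510 (87318 to 87702) in KO-Sham and 118994 (118745 to 119244) in KO-MI. Both MI libraries were above both Sham libraries, by 1.33-fold between the libraries labelled WT and 1.36-fold between those labelled KO. The same order held for single nuclei, whose median Malat1 share was 8.89% in WT-Sham, 11.5% in WT-MI, 8.39% in KO-Sham and 11.4% in KO-MI. Single nuclei overlapped widely between libraries, as the plot of Malat1 share per nucleus shows, with an interquartile range from 8.13% to 14.95% in WT-MI and from 5.95% to 11.4% in WT-Sham.

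Neat1 stood at 146 CPM (135 to 157) in WT-Sham, 513 (498 to 529) in WT-MI, 129 (122 to 136) in KO-Sham and 425 (410 to 440) in KO-MI. The MI libraries were again above the Sham libraries, by 3.52-fold for the WT labels and 3.30-fold for the KO labels, and no pair of the 4 intervals touched except those of the Sham libraries, at 135 and 136. Neat1 was detected in 34.0% of WT-Sham, 63.2% of WT-MI, 26.3% of KO-Sham and 57.4% of KO-MI nuclei. With 1000 UMIs drawn at random from each nucleus, and the 6 WT-Sham and 1 WT-MI nuclei that had fewer set aside, detection was 12.1%, 31.1%, 11.2% and 26.5%. For each Neat1 UMI there were 636 Malat1 UMIs in WT-Sham, 241 in WT-MI, 679 in KO-Sham and 280 in KO-MI, a ratio of tags and not of molecules per length.

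**Figure D1:**
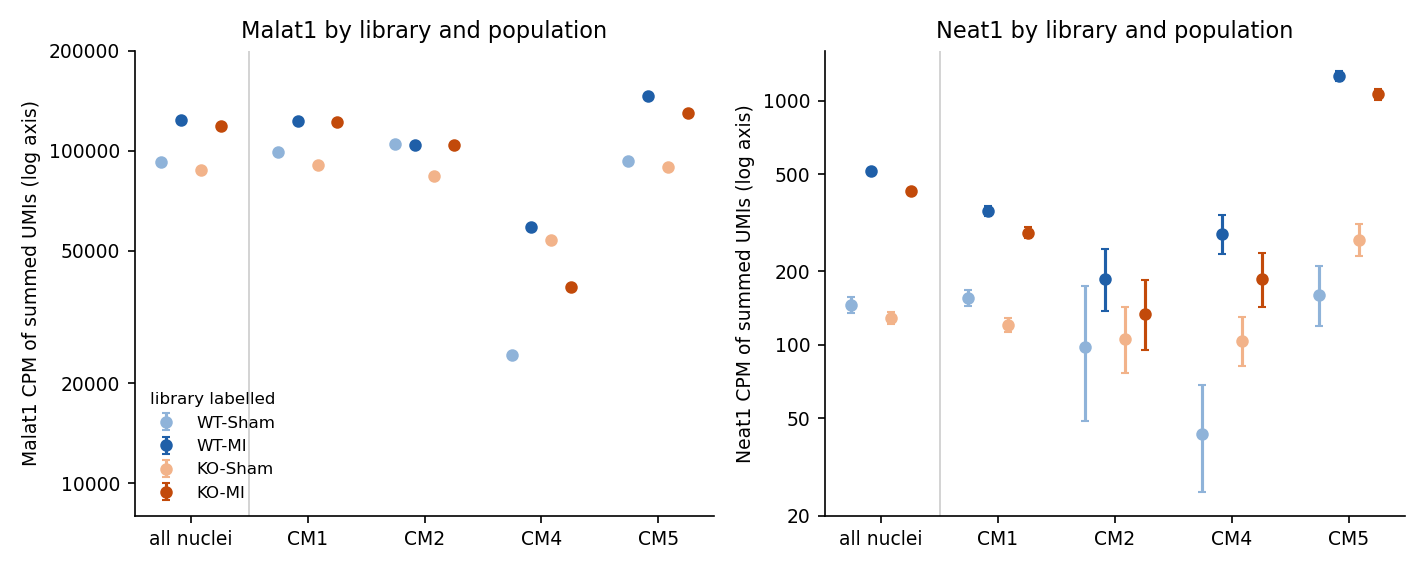
Malat1 (left) and Neat1 (right) in CPM of summed UMIs, on log axes, for all nuclei and for the deposited populations CM1, CM2, CM4 and CM5 of each library. Points are 1 library each and bars are 95% Poisson intervals, hidden by the point for most Malat1 values. Malat1 was lowest in CM4 in all 4 libraries, and Neat1 was highest in CM5 of both MI libraries, at 1265 and 1062 CPM.

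The authors' final labels divide the nuclei into CM1 (which holds their CM1 and CM3), CM2, CM4 and CM5. Genes looked up after the values were seen show what these names hold here. Top2a, a gene of dividing cells, stood at 500 to 592 CPM in CM2 and at 17.6 to 26.7 CPM in CM1. Ankrd1, a stress gene of cardiomyocytes, stood at 4261 and 4333 CPM in CM5 of WT-MI and KO-MI, against 1528 and 1638 CPM in CM1. Acta2, an actin of smooth muscle and immature cardiomyocytes, was higher in CM4 (400 to 983 CPM) than in CM1 (136 to 298 CPM) in each library. In a second deposited label, transferred from an earlier reference, 940 of the 1292 CM2 and CM5 nuclei (72.8%) carried the other of these 2 names, so CM2 and CM5 are used here only in the sense of the final label.

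Malat1 was lower in CM4 than in every other population of the same library. It stood at 24264 CPM (23781 to 24755) in CM4 of WT-Sham, 59174 (58442 to 59913) in WT-MI, 53973 (53442 to 54509) in KO-Sham and 38857 (38201 to 39522) in KO-MI. In CM1 it stood at 98908, 123381, 90874 and 122074 CPM in that order. CM4 was therefore below CM1 by 4.08-fold in WT-Sham, 2.09-fold in WT-MI, 1.68-fold in KO-Sham and 3.14-fold in KO-MI, and the CM4 intervals of the 4 libraries did not touch one another. By summed UMIs the lowest level was that of WT-Sham and the highest that of WT-MI. By the median share per nucleus KO-Sham was highest instead, at 5.50% against 4.38% in WT-MI. A single CM4 nucleus of WT-MI held 1246 of its 24933 Malat1 UMIs.

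The other populations lay closer together. CM5 was above CM1 in both MI libraries, at 145973 CPM in WT-MI and 129966 in KO-MI, and slightly below it in both Sham libraries, at 93543 and 89530. CM2 stood at 104958 CPM (103073 to 106868) in WT-Sham, 103809 (102568 to 105061) in WT-MI, 83910 (83021 to 84807) in KO-Sham and 104320 (103148 to 105502) in KO-MI. Of the 16 sums of 4 populations in 4 libraries, neighbours in the order of levels had overlapping intervals in 1 place, among the CM2 sums of WT-Sham, KO-MI and WT-MI. From the top, the order began with CM5 of WT-MI, CM5 of KO-MI, CM1 of WT-MI and CM1 of KO-MI, and it ended with the CM4 sums.

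**Figure D2:**
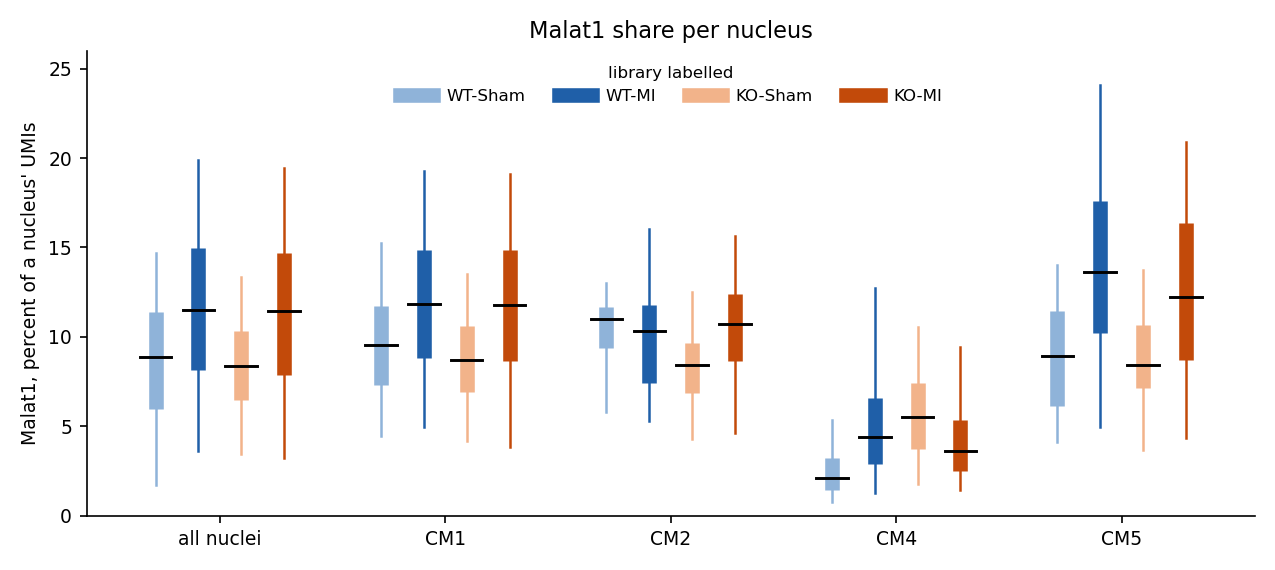
Malat1 as a percent of the UMIs of each nucleus, for all nuclei and by population, in each library. Black lines are medians, boxes the interquartile range and thin lines the 5th to 95th percentile. The CM4 medians, from 2.10% in WT-Sham to 5.50% in KO-Sham, lie under those of every other population, and the 95th percentile in CM4 reached 12.7% in WT-MI.

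Nuclei of CM4 differed in other measures too. Their median share of Malat1 was 2.10%, 4.38%, 5.50% and 3.64% in WT-Sham, WT-MI, KO-Sham and KO-MI. Their median percent.mt was 14.6, 10.8, 11.6 and 9.47 in that order, against 6.13, 5.15, 8.78 and 5.05 in CM1. Their median UMIs were 1715.5, 1852.5, 1859 and 2394, against 3749, 4042, 2632 and 4043.5 in CM1. UMIs of the 8 endothelial markers were at 352 to 554 CPM in CM4, against 134 to 155 CPM over all nuclei, and those of the 8 fibroblast markers at 2030 to 2531 CPM, against 997 to 1197. No endothelial or fibroblast marker of either list was at 0 in CM4, and the part of RNA from other cells in the Malat1 level of CM4 was not tested. Cardiomyocyte markers stood at 26427 to 28851 CPM in CM4.

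Neat1 had another order of populations. In CM5 it stood at 160 CPM (119 to 210) in WT-Sham, 1265 (1208 to 1324) in WT-MI, 269 (230 to 313) in KO-Sham and 1062 (1009 to 1117) in KO-MI. Both MI libraries were far above both Sham libraries there. Against CM1 of the same library, where Neat1 stood at 156, 353, 120 and 288 CPM, CM5 was higher by 3.58-fold for WT-MI, 3.68-fold for KO-MI and 2.24-fold for KO-Sham. In WT-Sham the log2 ratio of CM5 over CM1 was 0.04 (-0.40 to 0.45), an interval that holds 0.

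In CM5 a Neat1 UMI was found in 37.1% of WT-Sham, 90.0% of WT-MI, 41.9% of KO-Sham and 82.3% of KO-MI nuclei. Thinned to 1000 UMIs these shares were 15.7%, 57.8%, 20.1% and 52.4%. Nuclei with 5 or more Neat1 UMIs made up 1.12%, 38.6%, 0.855% and 32.7% of CM5. CM5 held 45.8% of the Neat1 UMIs of WT-MI in 16.9% of its nuclei, and 47.7% of those of KO-MI in 19.2%, whereas it held 7.15% in 6.33% of WT-Sham nuclei and 14.6% in 7.03% of KO-Sham nuclei. Over all nuclei the most Neat1 UMIs in 1 nucleus were 8 in WT-Sham, 68 in WT-MI, 7 in KO-Sham and 39 in KO-MI. The 6 cardiomyocyte markers were lower in CM5 of the MI libraries (23603 CPM in WT-MI and 23168 in KO-MI) than in CM5 of the Sham libraries (33165 and 32043).

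In CM4 Neat1 stood at 43.0 CPM (25.04 to 68.8) in WT-Sham, 285 (236 to 341) in WT-MI, 104 (82.0 to 130) in KO-Sham and 186 (143 to 238) in KO-MI. These values rest on 17, 120, 76 and 64 UMIs, so their counting error is larger than for Malat1 and their order is not firm. A single nucleus held 23 of the 64 UMIs in KO-MI (35.9%), and without it the level was 120 CPM (86.2 to 163). In CM2 Neat1 stood at 97.8 (48.8 to 175), 186 (137 to 247), 106 (76.8 to 143) and 134 CPM (95.6 to 184), with wide intervals that overlapped, from 11, 48, 43 and 39 UMIs.

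The comparison of MI with Sham asks how both RNAs stood 1 day after infarction. Over all nuclei Neat1 was higher in the MI library for both genotype labels, with a log2 ratio of 1.82 (1.70 to 1.93) for WT and 1.72 (1.63 to 1.82) for KO. Malat1 was higher by 0.41 (0.41 to 0.42) and 0.44 (0.44 to 0.45). Of the 2 members, 1 was therefore higher by 1.5-fold or more in each comparison, beside 12.5% of the 13415 genes with 20 or more UMIs for WT and 14.1% of 13806 for KO. Neat1 had a larger ratio than 97.6% and 97.9% of these genes and Malat1 than 82.3% and 80.3%, where the median log2 ratio over all genes was -0.066 and 0.045.

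Within populations the MI over Sham ratio of Neat1 was largest in CM5, at 2.98 (2.59 to 3.41) for WT, or 7.91-fold, and 1.98 (1.75 to 2.22) for KO, or 3.95-fold. In CM1 it was 1.18 (1.05 to 1.31) and 1.26 (1.14 to 1.38). The MI over Sham ratio of Malat1 in CM5 was 0.64 (0.62 to 0.66) with WT and 0.54 (0.52 to 0.55) with KO labels. Thus 2 of 2 members passed 1.5-fold in CM5 for WT and 1 of 2 for KO, beside 22.8% and 25.5% of genes. In CM1 the Malat1 ratio was 0.32 and 0.43, and in CM2 it was -0.02 (-0.05 to 0.02) for WT and 0.31 (0.29 to 0.34) for KO.

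In CM4 the MI over Sham ratios differed between genotype labels. For WT, Malat1 was higher in MI by a log2 ratio of 1.29 (1.252 to 1.32) and Neat1 by 2.73 (1.99 to 3.55), 2 of 2 members past 1.5-fold beside 28.5% of genes. For KO, Malat1 was lower in MI, at -0.47 (-0.50 to -0.45), while Neat1 was higher, at 0.84 (0.34 to 1.34), 1 of 2 members beside 17.7% of genes. Without the nucleus that held most Neat1 UMIs in each library, the Neat1 ratio for KO was 0.26 (-0.33 to 0.83). These pairs of ratios compare libraries that stand alone, and the difference between them was not tested.

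**Figure D3:**
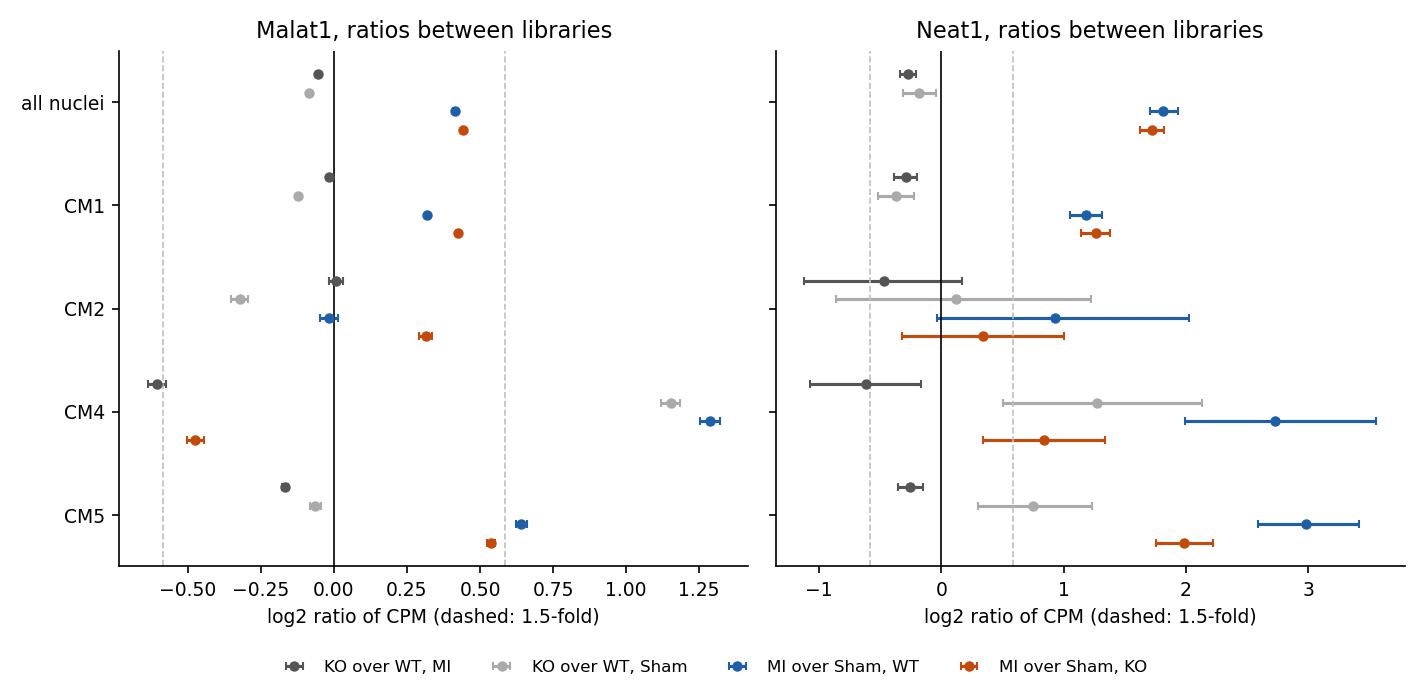
Log2 ratios of Malat1 (left) and Neat1 (right) CPM between libraries, for all nuclei and each population, with 95% conditional binomial intervals. The solid line is no difference and dashed lines are 1.5-fold in either direction. Neat1 MI over Sham ratios lie right of 0 in every population, with intervals that reach 0 only in CM2, and the CM4 ratios of Malat1 lie on both sides of 0.

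The comparison of KO with WT asks how both RNAs stood where Nrf1 was to be deleted from cardiomyocytes. The Nfe2l1 counts over all nuclei do not follow the genotype labels of the MI pair. Over all nuclei both RNAs were slightly lower in the libraries labelled KO. The log2 ratio of Malat1 was -0.05 (-0.06 to -0.05) for MI and -0.08 (-0.09 to -0.08) for Sham, and that of Neat1 was -0.27 (-0.34 to -0.20) and -0.18 (-0.31 to -0.04). Neither member was lower by 1.5-fold or more, 0 of 2 beside 3.68% of 13678 genes for MI and 5.61% of 13370 for Sham. With TMM scaling, and with the same weight for each range of percent.mt in every library, the Malat1 ratio for Sham was above 0, at 0.017 and 0.10.

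In CM4 the KO over WT ratios were larger and opposite in sign between surgeries. For MI, Malat1 was lower in KO by -0.61 (-0.64 to -0.58) and Neat1 by -0.61 (-1.07 to -0.16), 2 of 2 members lower by 1.5-fold or more beside 19.3% of genes. For Sham, Malat1 was higher in KO by 1.15 (1.12 to 1.19) and Neat1 by 1.28 (0.50 to 2.13), 2 of 2 beside 19.9% of genes. Without the nucleus that held most Neat1 UMIs in each library, the MI ratio of Neat1 was -1.14 (-1.70 to -0.61). In the CM4 nuclei with less RNA of other cells it was 1.63 (0.57 to 2.80), from 26 and 11 UMIs in 13 and 20 nuclei. The 26 UMIs of KO-MI include 23 from the 1 nucleus that held most, so this value rests mostly on that nucleus. Gene groups differed between the same CM4 sums. For MI the CM4 medians of the 10 short contractile mRNAs and the 76 ribosomal protein mRNAs were 0.48 and 0.29, with 10 of 10 and 74 of 76 above 0, and that of genes spanning 200 kb or more was -0.34, with 105 of 481 above 0. For Sham those medians were -0.23, -0.23 and 0.41, with 1 of 10, 2 of 76 and 411 of 506 genes above 0. Over all genes with 20 or more UMIs the CM4 median was -0.077 for MI and 0.058 for Sham. The mitochondrial genome did not follow the sign of the Malat1 ratio, with a CM4 median of -0.17 for MI (1 of 13 above 0) and -0.35 for Sham (0 of 13). Markers of other cells also differed between these sums. For Sham the KO over WT log2 ratio of the summed UMIs in CM4 was -0.71 (-0.76 to -0.65) for red blood cell, -0.65 (-0.92 to -0.39) for endothelial, -0.66 (-1.08 to -0.23) for myeloid and -0.32 (-0.43 to -0.20) for fibroblast markers. For MI these ratios were -1.249 (-1.34 to -1.15), -0.08 (-0.39 to 0.23), -0.93 (-1.28 to -0.59) and -0.08 (-0.22 to 0.06). That of the summed atrial cardiomyocyte markers was 0.88 (0.81 to 0.96) for MI. Of the atrial markers with 20 or more UMIs, 3 of 3 lay above 0 there, with a median of 3.15. The part of these marker groups in the Malat1 and Neat1 ratios was not tested.

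In CM5 the KO over WT ratio of Neat1 was -0.25 (-0.35 to -0.15) for MI and 0.75 (0.30 to 1.23) for Sham. That of Malat1 was -0.17 (-0.18 to -0.16) and -0.06 (-0.08 to -0.04). In CM1 Neat1 was lower in KO by -0.29 (-0.39 to -0.20) for MI and -0.37 (-0.52 to -0.22) for Sham.

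Malat1 declined along percent.mt in every library, as the plot by mitochondrial share shows. Since shares of 1 total must give way to each other, Malat1 was also expressed per UMI not from the mitochondrial genome. Nuclei of each library were divided into 4 groups of equal size by percent.mt. The log2 ratio of the group with the highest percent.mt over that with the lowest was -0.96 (-0.97 to -0.94) in WT-Sham, -0.58 (-0.59 to -0.57) in WT-MI, -0.52 (-0.53 to -0.51) in KO-Sham and -0.64 (-0.65 to -0.63) in KO-MI. The median Malat1 share per nucleus in the lowest and the highest group was 11.1% and 3.85% in WT-Sham, 14.4% and 7.62% in WT-MI, 10.2% and 6.62% in KO-Sham, and 14.2% and 7.67% in KO-MI. CM4 nuclei made up 51.4%, 31.1%, 23.6% and 21.2% of the highest group. Without CM4 nuclei the log2 ratios were -0.41, -0.43, -0.40 and -0.48, so that WT-Sham no longer stood apart. Neat1 was lower in the highest group too, at log2 ratios of -0.61 (-0.97 to -0.27), -0.36 (-0.50 to -0.23), -0.38 (-0.63 to -0.14) and -0.39 (-0.54 to -0.23) in the same order. Without CM4 nuclei those ratios were -0.21 (-0.52 to 0.09), -0.13 (-0.26 to -0.00), -0.28 (-0.53 to -0.03) and -0.24 (-0.39 to -0.09).

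Over single nuclei, the Spearman correlation of Malat1 share with percent.mt was -0.60 over 1406 nuclei in WT-Sham, -0.46 over 2003 in WT-MI, -0.49 over 3328 in KO-Sham and -0.46 over 1848 in KO-MI. These are descriptions, since both shares have the same total and nuclei of a library share its pool and depth. Per UMI not from the mitochondrial genome the correlation was -0.55, -0.41, -0.42 and -0.42. The correlation of Malat1 share with the UMIs of the nucleus was 0.46, 0.44, 0.39 and 0.37. Within CM1 that correlation was 0.29, 0.33, 0.40 and 0.39, and within CM4 it was -0.08, 0.10, -0.20 and -0.27.

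**Figure D4:**
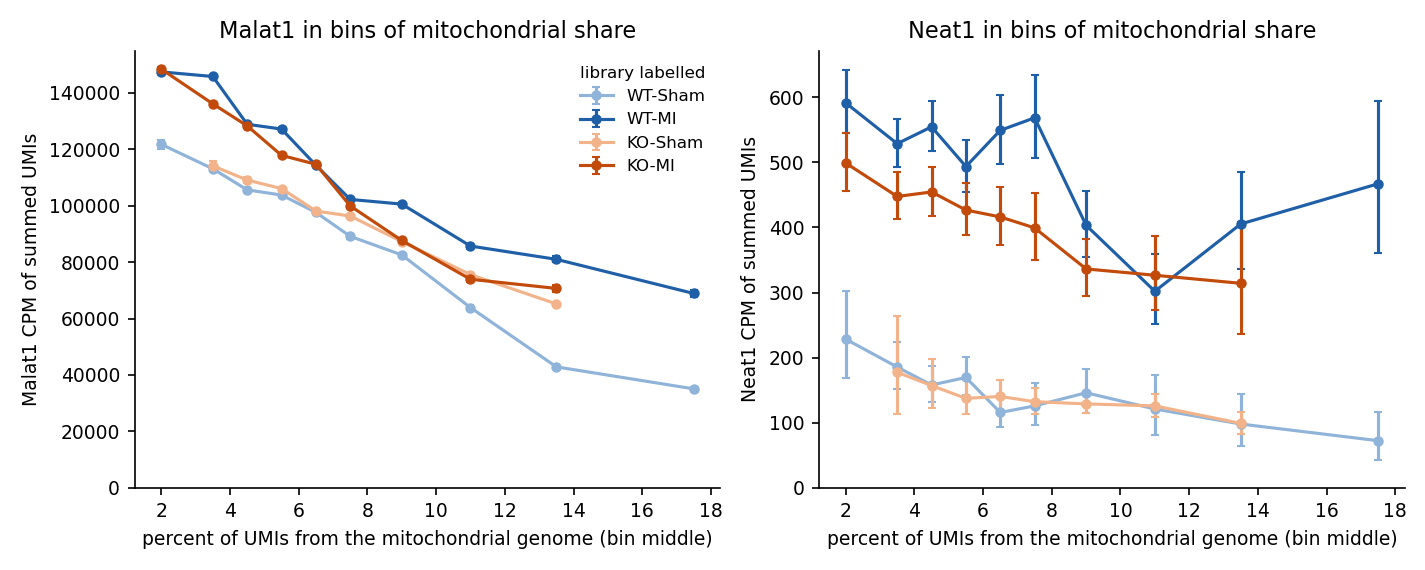
Malat1 (left) and Neat1 (right) in CPM of the UMIs summed over nuclei in ranges of percent.mt, placed at the middle of the range, for each library, with 95% Poisson intervals and only ranges with at least 20 nuclei. Malat1 declines from left to right in all 4 libraries, and Neat1 of each MI library lies above that of the Sham library of its genotype label in every range that both hold.

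Libraries were also compared in nuclei of the same range of percent.mt, where at least 20 nuclei of both libraries were present. For WT, Neat1 was higher in MI than in Sham in 10 of 10 ranges (log2 ratios from 1.32 to 2.69) and Malat1 in 10 of 10 (from 0.20 to 0.97). For KO, Neat1 was higher in 8 of 8 ranges (from 1.33 to 1.67) and Malat1 in 7 of 8 (from -0.03 to 0.25). The KO over WT ratio of Neat1 for Sham was above 0 in 4 of 8 ranges, with no interval clear of 0. For MI the KO over WT ratio was above 0 in 1 of 9 ranges for Neat1 and 2 of 9 for Malat1, with 6 intervals below 0 for each and medians of -0.26 and -0.10. The KO over WT ratio of Malat1 for Sham was above 0 in 8 of 8 ranges, from 0.01 to 0.60, opposite to its sign over all nuclei. Populations were compared with CM1 in the same way. Malat1 in CM4 was below CM1 in 11 of 11 ranges of a library, by a median of -0.84 and between -1.52 and -0.45, with every interval below 0. For CM5 no range of WT-Sham held enough nuclei, so the comparison covers the other 3 libraries. Neat1 in CM5 was above CM1 in 7 of 7 ranges of WT-MI, 8 of 8 of KO-MI and 4 of 5 of KO-Sham, with medians of 1.97, 1.95 and 1.38. Malat1 in CM5 was above CM1 in 6 of 7, 6 of 8 and 2 of 5 ranges, with medians of 0.24, 0.04 and -0.05.

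Across the 16 sums, Malat1 CPM had a Spearman correlation of -0.82 with the mitochondrial genome, -0.72 with ribosomal protein mRNAs, -0.89 with short contractile mRNAs, 0.64 with genes spanning 200 kb or more and 0.85 with other nuclear long RNAs. It had a Spearman correlation of 0.84 with the median UMIs per nucleus of the sum. For Neat1 the same 5 lists gave -0.36, -0.08, -0.42, 0.24 and 0.54, and median UMIs gave 0.34. The 16 sums come from 4 libraries and share their totals, so these values describe the sums and carry no p. In CM4 ribosomal protein mRNAs took 5.50% to 8.17% of UMIs and long genes 8.49% to 11.9%, whereas in CM1 they took 2.18% to 3.20% and 18.2% to 22.3%.

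**Figure D5:**
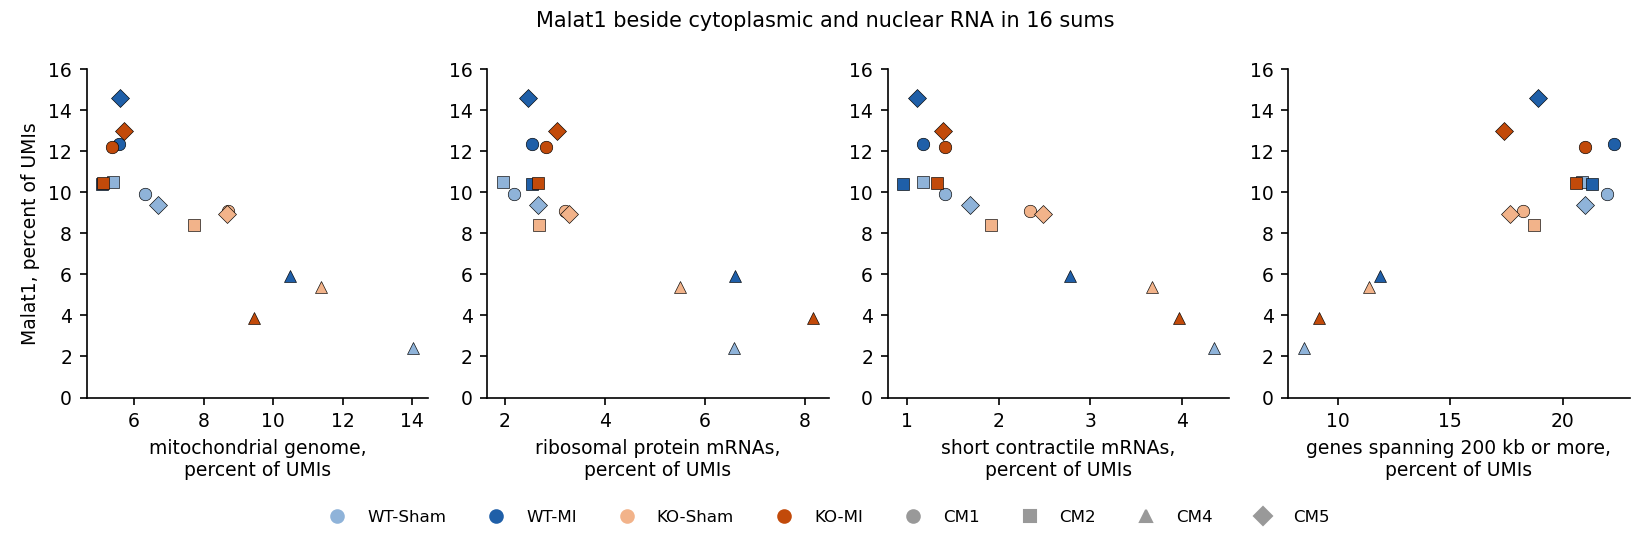
Malat1 as a percent of UMIs (vertical) against the percent of UMIs from the mitochondrial genome, ribosomal protein mRNAs, short contractile mRNAs and genes spanning 200 kb or more (horizontal), for the 16 sums of 4 libraries (colours) and 4 populations (shapes). The 4 CM4 sums (triangles) stand apart, with Malat1 between 2.43% and 5.92%, and the mitochondrial share in them ranges from 9.46% to 14.0%.

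Both RNAs were then set beside genes whose level over the 16 sums was most like theirs, among 1961 genes with at least 10 UMIs in every sum. The 5 nearest to Malat1 by Pearson's r of log2 CPM were Zfr (0.976), Lcor (0.972), Magi3 (0.970), Arih1 (0.969) and Camk2d (0.968), a kinase of calcium signalling in cardiomyocytes. The 5 nearest to Neat1 were Enah (0.969), an actin regulator, Mical2 (0.953), Ppm1e (0.945), Cald1 (0.936), which binds actin, and Dpysl3 (0.933). Between Malat1 and Neat1 themselves r was 0.630, which placed Neat1 at rank 865 for Malat1 and Malat1 at rank 214 for Neat1. Enah ranged from 190 to 2659 CPM over the sums and Zfr from 147 to 517.

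Nuclei rich in Neat1 were rich in Malat1 as well. In WT-MI the 235 nuclei with 5 or more Neat1 UMIs had a median Malat1 share of 14.1% and a median percent.mt of 4.63, and the 737 nuclei with none had 9.71% and 5.97. In KO-MI the 182 nuclei with 5 or more had 13.7% and 4.62, and the 787 with none had 9.87% and 5.93. Nuclei with 5 or more also held more UMIs, with medians of 4738 against 3554 in WT-MI and 4283.5 against 3686 in KO-MI, so depth moved with the split and its part was not tested. CM5 made up 55.7% and 63.7% of the nuclei with 5 or more.

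The bodies that both RNAs belong to were examined through the genes of their proteins, counted as called where the ratio over all nuclei was 1.5-fold or more with an interval that did not reach 0. Of all genes, 1.54% were so called higher and 1.60% lower for KO over WT in MI, 3.07% and 2.69% in Sham, 9.79% and 12.5% for MI over Sham in WT, and 11.6% and 9.73% in KO. None of the 15 paraspeckle protein genes was called in any of the 4 comparisons. Their median log2 ratios were 0.09, -0.07, 0.06 and 0.17 for KO over WT in MI and Sham and for MI over Sham in WT and KO, where all genes had 0.030, -0.095, -0.066 and 0.045. Sfpq, a core paraspeckle protein, stood at 175, 153, 188 and 158 CPM in WT-Sham, WT-MI, KO-Sham and KO-MI, and its MI over Sham log2 ratio was -0.20 (-0.32 to -0.07) for WT and -0.26 (-0.36 to -0.15) for KO.

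None of the 15 genes of nuclear speckle and splicing proteins was called either, with medians of -0.01, -0.08, 0.03 and 0.14. Son, a scaffold of nuclear speckles, stood at 573, 674, 481 and 722 CPM in WT-Sham, WT-MI, KO-Sham and KO-MI, with MI over Sham log2 ratios of 0.24 (0.17 to 0.30) and 0.58 (0.53 to 0.64). Srrm2, another speckle scaffold, stood at 300, 324, 290 and 318 CPM.

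Of the genes that process or bind the Malat1 end, 11 of 12 listed were in the matrix, with medians of 0.09, 0.11, 0.02 and 0.24. For KO over WT in MI, 1 of 11 was called higher, Rpp40 at 1.01 (0.06 to 2.02) from 28 and 15 UMIs. Of all genes, 12.5% were called lower in MI over Sham for WT and 11.6% higher for KO. Of the 11, 1 was called lower in WT, Rpp21 at -0.71 (-1.03 to -0.39), and 1 higher in KO, Rpp38 at 0.74 (0.20 to 1.28). All 3 encode subunits of RNase P. Mettl16, a methyltransferase that binds the folded Malat1 end, stood at 46.3, 59.5, 47.3 and 60.9 CPM.

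Other nuclear long RNAs did not move as one. Of 12 listed, 11 had 20 or more UMIs. In MI over Sham 5 were called higher for WT and 6 for KO, beside 9.79% and 11.6% of all genes. None of the list was called lower, and its medians were 0.41 and 0.63. Those called in both were Xist, which coats the inactive X chromosome, Meg3, Rian and Mirg of an imprinted cluster, and Pvt1, with Ftx added in KO. Meg3 stood at 44.5, 320, 45.6 and 365 CPM in WT-Sham, WT-MI, KO-Sham and KO-MI, with MI over Sham log2 ratios of 2.85 (2.65 to 3.05) and 3.001 (2.85 to 3.15). Pvt1 was higher by 2.47 (2.17 to 2.78) and 2.64 (2.40 to 2.89). Airn, with the most UMIs of the list, stood at 2191, 2129, 1755 and 2153 CPM and was not called. Xist stood at 163, 1010, 801 and 1530 CPM and was the 1 RNA of the list called between genotype labels, higher in KO by 0.60 (0.56 to 0.64) for MI and 2.30 (2.19 to 2.40) for Sham. The sex of the pooled pups is not given in the sources used here, and its part in the Xist level was not tested.

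Cytoplasmic RNAs differed between the same libraries. For MI over Sham, 12.5% of all genes were called lower and 9.79% higher in WT, and 9.73% and 11.6% in KO. In the 10 short contractile mRNAs, 5 were called lower and 1 higher in MI over Sham for WT, and 6 lower and 1 higher for KO, with medians of -0.60 and -0.81. Those lower in both were Myl3, Tnni1, Tnni3, Mb and Ckm, with Myl2 added in KO. Mb, which encodes myoglobin, stood at 954, 358, 1269 and 428 CPM in WT-Sham, WT-MI, KO-Sham and KO-MI, with MI over Sham log2 ratios of -1.41 (-1.48 to -1.35) and -1.57 (-1.62 to -1.51). Des, which encodes desmin, was the one called higher, by 0.68 in both. For KO over WT in Sham 4 of the 10 were called higher (Actc1, Myl3, Tnni3 and Csrp3), with a median of 0.54, and in MI none was called, with a median of 0.29. Of the 13 genes of the mitochondrial genome 7 were called lower in MI over Sham for KO, where the median was -0.62, and 1 for WT, mt-Nd6, at a median of -0.23. Those 7 were mt-Nd1, mt-Nd2, mt-Nd6, mt-Co1, mt-Co2, mt-Co3 and mt-Atp6, among them the cytochrome oxidase subunits that the mitochondrial genome encodes. No nucleus of KO-MI lay over a percent.mt of 12.99, while 9.74% of KO-Sham nuclei did. The part of this difference in the ratios of mitochondrial genes was not tested. Mt-Co3, with the most UMIs of the list, stood at 17035, 15262, 22512 and 14580 CPM in WT-Sham, WT-MI, KO-Sham and KO-MI. For KO over WT in Sham 13 of 13 lay above 0, with a median of 0.32 and none called. The KO-Sham library, which had the lowest Malat1 level over all nuclei, also had the highest mitochondrial share, at 8.88% of its UMIs against 5.60% to 6.94% in the others. Of the 76 ribosomal protein mRNAs, 76 lay above 0 for KO over WT in both surgeries, with medians of 0.17 in MI and 0.40 in Sham. In Sham 3 of them were called higher (Rpl35, Rpl19 and Rpl15), beside 3.07% of all genes. For MI over Sham in WT 1 was called higher (Rpl38) and 1 lower (Rpl15), beside 9.79% and 12.5% of all genes. In KO 2 were called lower (Rpl35 and Rpl15), beside 9.73%.

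RNA of other cell types was measured beside both members. Splitting each library at the median share of UMIs from 31 myeloid, fibroblast, endothelial and mural markers, Malat1 stood at 100709 CPM at or under the median and 82752 over it in WT-Sham, 134035 and 110479 in WT-MI, 92635 and 81738 in KO-Sham, and 128363 and 107693 in KO-MI. Neat1 stood at 156 and 133, 561 and 454, 135 and 122, and 462 and 381 CPM in the same order. Both were thus higher in the nuclei with less RNA of other cells in every library. The Neat1 intervals overlapped in WT-Sham (142 to 171 and 118 to 149) and in KO-Sham (124 to 145 and 112 to 133). Nuclei with less such RNA also held more UMIs, with medians of 2719 to 4382.5 against 2427.5 to 3571. CM4, lowest in Malat1, had more fibroblast and endothelial marker CPM than CM1 in each library. Population may therefore move with the split, and its part was not tested. Of the 10 myeloid markers 7 were called higher in MI for WT and 8 for KO, beside 9.79% and 11.6% of all genes. The sum of these markers over all nuclei was 141, 284, 92.1 and 195 CPM in WT-Sham, WT-MI, KO-Sham and KO-MI, with none at 0. In the nuclei with less RNA of other cells the MI over Sham ratio of Neat1 was 1.85 for WT and 1.78 for KO, beside 1.82 and 1.72 over all nuclei. Fibroblast markers, at 997 to 1197 CPM, gave most UMIs of the 31, so this split could not sort nuclei by myeloid RNA alone. The part of myeloid RNA in the Neat1 ratios was not tested. In CM5, where Neat1 was highest, the myeloid sum was 145, 221, 92.9 and 207 CPM. None of the 10 myeloid markers was at 0 in CM5 of either MI library, and 1 was at 0 in KO-Sham (Adgre1, a macrophage marker). Red blood cell markers stood at 2123 to 4519 CPM over all nuclei and 3538 to 12805 in CM4, and their highest sum was 18447 CPM in CM2 of WT-MI.

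The 4 atrial cardiomyocyte markers, like Neat1, were higher in both MI libraries than in both Sham libraries. Their sum stood at 204 CPM in WT-Sham, 2439 in WT-MI, 333 in KO-Sham and 3343 in KO-MI, and most of it was Nppa, the atrial natriuretic peptide gene, which ventricular cardiomyocytes also express under stress. Nppa stood at 180, 2407, 297 and 3233 CPM in that order. For MI over Sham 1 of the 3 markers with 20 or more UMIs was called higher in WT (Nppa) and 4 of 4 in KO. Of all genes 9.79% and 11.6% were called higher. In CM5 the sum was 274, 3568, 671 and 5508 CPM and in CM4 506, 5274, 504 and 9724 CPM. Their part in the Neat1 levels was not tested.

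Over the 16 sums, Malat1 had a Spearman correlation of -0.67 with endothelial, -0.64 with mural, -0.57 with fibroblast, -0.15 with red blood cell, 0.01 with myeloid and 0.18 with atrial cardiomyocyte markers. For Neat1 those values were -0.11, -0.61, -0.06, 0.21, 0.49 and 0.69 in the same order. As above, these describe sums that share libraries and totals, and the part of such RNA in either level was not tested.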

How the data were processed

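Single-nucleus libraries were made with the 10x Genomics 3′ chemistry (version 2 in the labels, version 3 in the methods), which primes with oligo(dT). Per the study's methods, the authors aligned reads with Cell Ranger (version not given in the sources used here) to mm10/GRCm38 with introns counted, kept nuclei with 200 to 2500 detected genes, removed doublets with Scrublet, integrated and clustered with Seurat 3 and kept cardiomyocyte clusters. The deposited matrix holds raw UMI counts per gene and nucleus, with no normalization. Percent.mt is the percent of UMIs from the mitochondrial genome as deposited by the authors in the table of nuclei, and recomputing it from the counts gave the same values within 5.00e-09. No filter on percent.mt is stated, and no doublet caller was rerun. In the table of nuclei, 11 other columns were not used.

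Groups came from the sample titles. Each nucleus was assigned to its library through the table of nuclei and to a population by the final label. UMIs were summed by library and population and given as CPM with exact Poisson intervals. Shares of nuclei have exact Clopper-Pearson intervals and ratios exact conditional binomial intervals, all at 95%, for counting error only. With 1 library per group no test was run. Total UMIs per library were 4984625 to 9106522. Genes entered the background with at least 20 UMIs in the pair of sums, called at a ratio of 1.5-fold. Scripts were tested on simulated data. Software was Python 3.11.15, numpy 2.4.6, scipy 1.17.1, pandas 2.3.3, matplotlib 3.10.9, R 4.3.3 and edgeR 4.0.16, the last only for TMM factors.

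Members and lists were chosen with earlier results of these data known. Genes named beside the members are the 5 most alike each member by Pearson's r over the 16 sums, and of each list the 2 with most UMIs and those called over all nuclei, of which the text gives the ones nearest to the members and counts the rest. One gene that the rule names is not reported here. Marker genes of the populations were looked up after their values were seen. Alternatives were the denominator, TMM scaling, thinning to 1000 UMIs, equal population weights, limits on percent.mt, low RNA of other cells and the filter on low counts. Added after seeing the data were the common range of percent.mt, equal weights per range of percent.mt, leaving out CM4, shared barcodes or the nucleus with most Neat1 UMIs, and the exchanged CM2 and CM5 labels. Gene positions and transcripts came from GENCODE M21 on GRCm38, in which 22122 of 22574 symbols (98.0%) matched.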

Additional observations from a re-analysis of the deposited data

Results flagged for a closer look

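Several ratios had opposite signs in libraries that differ in surgery or in genotype label, with counting intervals clear of 0 on both sides. There was 1 library per group, so in each case the difference between the ratios was not tested.

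In CM4 the KO over WT log2 ratio of Malat1 was -0.61 for MI and 1.15 for Sham, and that of Neat1 was -0.61 for MI and 1.28 for Sham. In the same population the MI over Sham log2 ratio of Malat1 was 1.29 for WT and -0.47 for KO. The CM4 nuclei of the library labelled WT-Sham, which had the lowest Malat1 level at 24264 CPM, also had the highest median percent.mt at 14.6, and 71.4% of them lay over the highest percent.mt of KO-MI, 12.99. Within the range of percent.mt that all 4 libraries hold, the Malat1 ratios in CM4 were -0.76 and 0.96 for KO over WT in MI and Sham, and 1.15 and -0.57 for MI over Sham in WT and KO. They kept their signs there. Red blood cell, endothelial, myeloid and fibroblast markers were also lower in CM4 of KO-Sham than of WT-Sham, at log2 ratios of -0.71, -0.65, -0.66 and -0.32, and their part in the ratios was not tested.

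In CM5 the KO over WT log2 ratio of Neat1 was -0.25 for MI and 0.75 for Sham. The Sham ratio rests on 171 UMIs in KO-Sham and 52 in WT-Sham. In CM5 nuclei with less RNA of other cells the ratios were -0.07 (-0.19 to 0.06) for MI and 0.69 (0.10 to 1.31) for Sham.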

How the results depend on the processing

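No paired analysis was possible because each group was 1 library. Log2 ratios follow in the order KO over WT in MI and in Sham, then MI over Sham in WT and in KO. For Malat1 over all nuclei, reported as -0.05, -0.08, 0.41 and 0.44, they were -0.077, 0.017, 0.49 and 0.39 with TMM factors, -0.10, 0.10, 0.33 and 0.13 with equal weights per range of percent.mt, -0.032, -0.031, 0.43 and 0.43 with thinned nuclei, -0.060, -0.069, 0.39 and 0.40 with equal population weights, -0.065, -0.070, 0.35 and 0.36 with percent.mt under 10, and -0.076, -0.12, 0.36 and 0.40 in the common range of percent.mt. With Malat1, Neat1 and the mitochondrial genome out of the denominator the first 3 were -0.066, -0.060 and 0.45, and without CM4 they were -0.049, -0.13 and 0.37. With low RNA of other cells those of KO over WT were -0.062 and -0.12 and that of MI over Sham in KO was 0.47. The Malat1 ratio for KO over WT in Sham thus changed sign under 2 settings. For Neat1 over all nuclei 36 of 40 alternative values lay within the counting interval. The others were -0.039 for KO over WT in Sham and 1.503 for MI over Sham in KO with equal weights per range of percent.mt, and 1.65 and 1.43 for MI over Sham in WT and KO with equal population weights.

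For Malat1 by percent.mt, in WT-Sham, WT-MI, KO-Sham and KO-MI, the log2 ratios were -1.10, -0.70, -0.63 and -0.74 over all UMIs, -1.09, -0.71, -0.53 and -0.72 thinned, -0.41, -0.37, -0.42 and -0.45 in CM1 only, and -0.41, -0.43, -0.40 and -0.48 without CM4. With a filter of 1 UMI the counts of genes past 1.5-fold, reported as 503 and 750 lower and 1681 and 1945 higher, were 2844, 3185, 4356 and 4484. Within populations 75 of 128 Malat1 values and 12 of 144 Neat1 values lay outside the counting interval, and 1 of each changed sign, Malat1 for KO over WT in Sham in CM5 with TMM factors (0.053) and Neat1 for KO over WT in MI in CM4 with low RNA of other cells (1.63). The latter value rests mostly on 1 KO-MI nucleus with 23 Neat1 UMIs. The planned restriction to nuclei with the same transferred label gave no value for CM2 and CM5. Counting intervals of Malat1 are narrow and do not cover the spread between hearts, which these pooled libraries do not give. The causes of the moves were not tested.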

Other observations

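Nuclei with 5 or more Neat1 UMIs made up 0.427% of WT-Sham, 11.7% of WT-MI, 0.150% of KO-Sham and 9.85% of KO-MI nuclei.

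The highest percent.mt lay just under a whole number in KO-Sham (14.99) and KO-MI (12.99), with 144 and 51 nuclei in the last whole point, against 17 and 15 in WT-Sham and WT-MI. Over 12.99, the highest value of KO-MI, lay 12.5% of WT-Sham, 4.79% of WT-MI and 9.74% of KO-Sham nuclei, and 71.4%, 26.04% and 27.1% of their CM4 nuclei. No limit on percent.mt is given in the sources used here, and the part of such a limit in the Malat1 levels of CM4 was not tested.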
